A study of Sus scrofa with 8 samples.

Results

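The miR-23, miR-27 and miR-24 microRNAs (miRNAs) were examined in the corpus luteum of the pig, a gland that arises from the follicle after ovulation and secretes progesterone. All array entries with the miRNA number 23, 27 or 24, of any letter or arm, were taken, which gave 11 of the 686 targets on the array. They comprised 4 entries named miR-23a or miR-27a, 4 named miR-23b or miR-27b, and 3 named miR-24. Luteal tissue was taken post mortem from crossbred gilts of 1 herd, 6 to 8 months old, on day 14 of the estrous cycle or of pregnancy. The cyclic group (4 samples) came from gilts that were not inseminated, and the pregnant group (4 samples) from gilts inseminated after detection of their second estrus. From each sample, which the labels treat as a biological replicate, 100 ng of total RNA was labelled with the dye Cy3 and hybridised on an array of its own. The tissue was whole luteal tissue, in which fewer cells of a type and less RNA per cell cannot be told apart.

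These miRNAs come from a pair of paralogous loci, each transcribed as a primary RNA that holds a miR-23, a miR-27 and a miR-24 hairpin. The a and b forms of miR-23, and likewise those of miR-27, share their seed and most of their remaining bases, while both loci give the same mature miR-24-3p. In mammals the clusters are known from endothelial cells, where miR-23 and miR-27 act on genes that restrain vessel sprouting. miR-27 is further known to repress genes of fat cell formation and lipid handling, and miR-24 to act on genes of the cell cycle and of cell death. The corpus luteum is among the most densely vascularised tissues of the body and makes its steroid from stored and imported cholesterol.

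In the pig RefSeq annotation (Sscrofa11.1), the a cluster lies on chromosome 2, where MIR23A (65308117 to 65308186), MIR27A (65308294 to 65308375) and MIR24-1 (65308453 to 65308524) together span 408 bp. The nearest other gene within 20 kb there is the protein-coding ZSWIM4, at a distance of 2674 bp. The b cluster lies on chromosome 10, where MIR24-2 (27079417 to 27079496), MIR27B (27079963 to 27080042) and MIR23B (27080197 to 27080276) span 860 bp. This cluster falls inside the span of the protein-coding gene C10H9orf3 (27078115 to 27472347). The long non-coding RNA gene LOC110255664 (27076361 to 27078849) lies at a distance of 568 bp from it. Exons and strands are not in the table used here, so exonic or intronic position was not assigned.

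The arrays carried 1683 probes, and 211 targets were detected on at least 4 arrays and tested. The 75th percentile of signal was 189 to 316 per array, 0 spots were saturated, and correlations between arrays over the tested targets were 0.942 to 0.991. Slide 1 held only pregnant arrays (replicates 1 and 2), slide 2 only cyclic arrays (replicates 1 and 2), and slide 3 the remaining 4. The scan of slide 1 was made on a different day from that of slides 2 and 3. Of the markers that check the tissue, both entries of the gonadal miR-202 were tested, while all 7 entries of muscle and liver miRNAs were detected on no array.

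Within both clusters, signal was detected only for the strands known as guides. Of the opposite strands, those of miR-23a, miR-27a and miR-23b were represented by human-named entries, whose probe match to the pig strands was not checked. ssc-miR-23a, ssc-miR-27a, ssc-miR-24-3p, ssc-miR-23b and ssc-miR-27b-3p were each detected on all 8 arrays, with 100% of their spots well above background. Their intensities ran from 579 to 1896, and the coefficient of variation between spots was 1.87% to 7.67%. The 6 entries of the opposite strands (hsa-miR-23a-5p, hsa-miR-27a-5p, ssc-miR-24-1-5p, hsa-miR-23b-5p, ssc-miR-27b-5p and ssc-miR-24-2-5p) were detected on 0 arrays, with mean intensities from −1.81 to 7.96. The highest of these were those of ssc-miR-24-2-5p, the partner strand from the b cluster, at 3.96 to 7.96, with at most 10% of its spots well above background on an array. Its counterpart from the a cluster, ssc-miR-24-1-5p, read 0.258 to 4.45. No strand specific to either miR-24 locus was therefore detected, and the shares of miR-24-3p from each locus cannot be told apart.

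In the a cluster, miR-23a, which is known to repress glutaminase, had largely overlapping levels in the cycle and in pregnancy. Its log2 signal relative to the 75th percentile of the array was 1.90, 1.75, 1.99 and 2.20 on cyclic replicates 1 to 4. On pregnant replicates 1 to 4 it was 1.78, 1.92, 1.69 and 2.13. The groups overlapped over most of their range. The means were 1.96 ± 0.19 and 1.88 ± 0.19 (SD, n = 4), with a limma difference, pregnant minus cyclic, of −0.08 ± 0.14 (SE, adjusted p = 0.756, 95% interval −0.38 to 0.22). With scaling over all probes the difference was 0.22.

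The widest difference was that of miR-27a, known for repressing fat cell formation. Its log2 signal was 1.64, 2.25, 2.43 and 2.59 on cyclic replicates 1 to 4. On pregnant replicates 1 to 4 it was 1.50, 2.02, 1.42 and 1.98. Cyclic replicates 2 to 4 all lay above the 4 pregnant arrays, whereas cyclic replicate 1 lay among them. The means were 2.23 ± 0.41 and 1.73 ± 0.31 (SD, n = 4), so that pregnant glands stood at 0.710 of the cyclic level. The limma difference of −0.49 ± 0.21 did not pass (unadjusted p = 0.0400, adjusted p = 0.134), and its 95% interval ran from −0.96 to −0.03. An unadjusted p under 0.05 was reached by 34.6% of all tested targets. The call turned on cyclic replicate 1, without which the difference was −0.69 and passed (adjusted p = 0.00723). Without it, however, 81 targets passed, against 24 with all arrays and 7 to 12 when any of the other 7 arrays was left out. Within slide 3 the miR-27a difference was −0.80 (adjusted p = 0.0535, and 0.0732 with slide as a block). With scaling over all probes it was −0.20 (adjusted p = 0.470), or −0.50 relative to the median of all tested targets, which that scaling moved to 0.31. A scaling factor shifts the detected targets of an array alike. The relative value therefore follows from the reported difference by construction and is no separate check.

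miR-24-3p, the product shared by both loci, was likewise close between the groups. It read 1.71, 1.64, 1.82 and 1.81 on cyclic replicates 1 to 4 and 1.68, 1.95, 1.46 and 2.00 on pregnant replicates 1 to 4. The pregnant arrays enclosed the cyclic ones on both sides. The limma difference was 0.02 ± 0.14 (SE, n = 4 per group, adjusted p = 0.942), with a 95% interval of −0.27 to 0.32, and its sign changed with the setting.

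In the b cluster, miR-23b was somewhat higher on most pregnant arrays. Its log2 signal was 2.36, 2.17, 2.19 and 2.14 on cyclic replicates 1 to 4 and 2.40, 2.44, 2.16 and 2.69 on pregnant replicates 1 to 4. Of the pregnant arrays, 3 lay above all cyclic ones and replicate 3 lay among them. The difference of 0.21 ± 0.13 did not pass the limma test (adjusted p = 0.289, 95% interval −0.08 to 0.49). It passed with scaling over all probes (0.51, adjusted p = 0.0310). That scaling raised the median difference of all tested targets to 0.31, and relative to it miR-23b stood at 0.20. This relative value, too, follows from the reported difference by construction. The difference was 0.10 with quantile normalization (adjusted p = 0.473) and 0.04 with the authors' deposited table (adjusted p = 0.863).

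miR-27b-3p, the b form of miR-27, showed no separation. It read 1.34, 1.66, 1.65 and 1.51 on cyclic replicates 1 to 4 and 1.41, 1.71, 1.24 and 2.00 on pregnant replicates 1 to 4. Pregnant replicates 3 and 4 were the lowest and the highest of all 8 arrays. The limma difference was 0.05 ± 0.16 (adjusted p = 0.880, 95% interval −0.31 to 0.41).

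**Figure D1:**
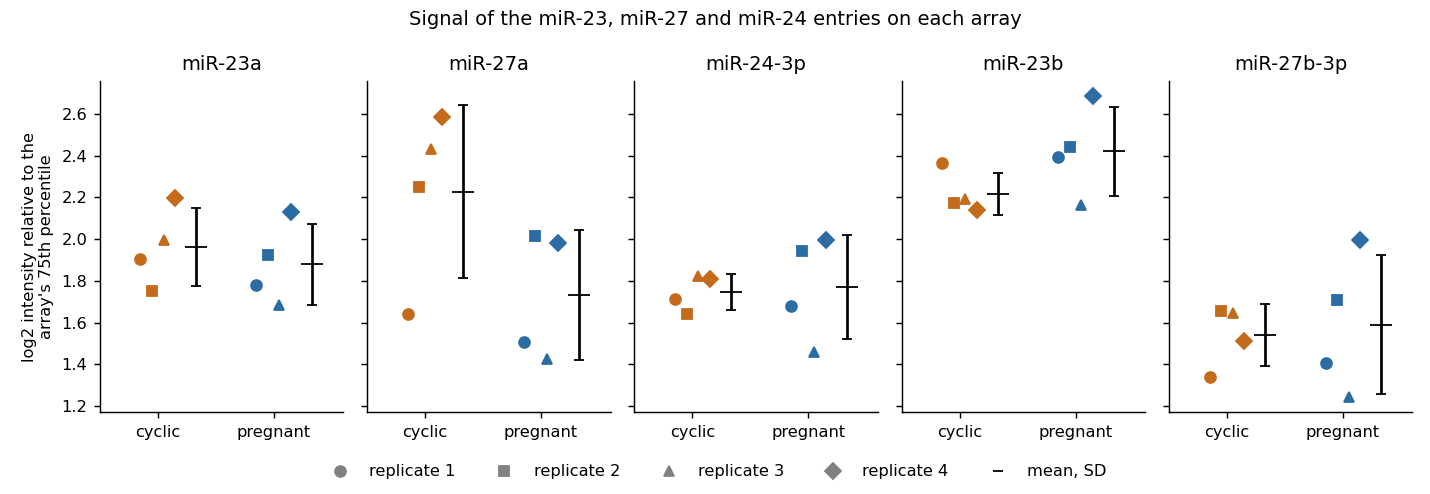
Log2 intensity relative to the 75th percentile of the array (y axis) for the 5 detected entries in cyclic and pregnant glands, 4 arrays each; symbols mark replicate numbers, and black marks give the mean and SD. The groups overlap in all 5 panels, and in miR-27a cyclic replicate 1, at 1.64, lies among the pregnant arrays. Levels of different entries come from different probes and are not comparable with each other.

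Over all 5 detected members, 0 passed the limma test, against 11.4% of the 211 tested targets (24 targets). Of all tested targets, 5.21% were called higher and 6.16% lower in pregnancy. Among the members 1, miR-27a, had an unadjusted p under 0.05. Groups without overlap were seen in 0 of the 5 and in 17.1% of all tested targets. The differences of 3 members were positive and those of 2 negative, with a median of 0.02, beside a median of 0.01 over all tested targets, of which 50.7% were positive (76.3% with scaling over all probes, where the differences of 4 of the 5 members were positive). The spread over the 8 arrays was small for most members. The SD was 0.17 for miR-24-3p, 0.18 for miR-23a, 0.19 for miR-23b and 0.24 for miR-27b-3p, beside a median of 0.28 over the tested targets. miR-27a was the exception among the 5, with an SD of 0.43 and a range of 1.16, and 77.7% of tested targets had a smaller SD. The choice of probe had little bearing on these values. Each of the 5 had 2 probes, whose log2 signals over the arrays correlated with r of at least 0.984 and whose group differences were at most 0.04 apart.

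**Figure D2:**
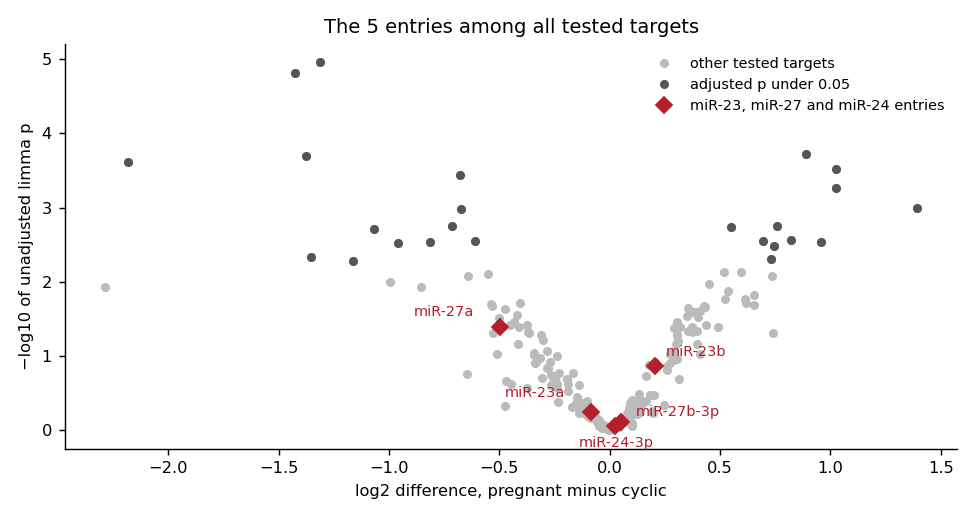
Each point is a tested target (211 in all), with the log2 difference, pregnant minus cyclic, on the x axis and −log10 of the unadjusted limma p on the y axis. Dark points are the 24 targets with an adjusted p under 0.05. Red diamonds are the 5 detected members, of which miR-27a (−0.49) lies farthest from 0.

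The second question was whether the a cluster changed relative to the b cluster. Signals of different probes cannot be compared in level, but the ratio of their signals within an array can be compared between groups, and the scaling factor of the array cancels in it. The log2 ratio of miR-23a to miR-23b was −0.46, −0.42, −0.20 and 0.06 on cyclic replicates 1 to 4. On pregnant replicates 1 to 4 it was −0.62, −0.52, −0.48 and −0.56. All 4 pregnant arrays lay below all 4 cyclic ones, although cyclic replicate 1 came close to pregnant replicate 3. The mean ratio was −0.25 ± 0.24 in the cycle and −0.54 ± 0.06 in pregnancy (SD, n = 4), a change of −0.29 ± 0.12 (SE), or 0.819-fold. The exact 2-sided permutation test over 70 splits gave p = 0.0286, the smallest that this design allows.

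For miR-27a against miR-27b-3p the log2 ratio was 0.30, 0.59, 0.78 and 1.08 on cyclic replicates 1 to 4. It was 0.10, 0.31, 0.18 and −0.01 on pregnant replicates 1 to 4. The groups overlapped only through cyclic replicate 1, which lay marginally below pregnant replicate 2. The mean was 0.69 ± 0.33 in the cycle and 0.14 ± 0.14 in pregnancy (SD, n = 4), and the change of −0.55 ± 0.18 (SE), or 0.685-fold, had an exact permutation p = 0.0571. Of the 2 ratios miR-27 thus had the larger change and miR-23 the complete separation.

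The mean of miR-23a and miR-27a over the mean of miR-23b and miR-27b-3p was −0.08, 0.09, 0.29 and 0.57 (log2) on cyclic replicates 1 to 4. On pregnant replicates 1 to 4 it was −0.26, −0.11, −0.15 and −0.28. All pregnant arrays lay below all cyclic ones, with cyclic replicate 1 the closest to them. The change was −0.42 ± 0.15 (SE). Adjusted over the 3 ratios compared, the exact permutation p was 0.0429 for miR-23 and 0.0571 for miR-27. The ratio of pair means is built from the other two, and adjusted over the 2 single ratios alone both stood at an exact permutation p of 0.0571. Complete separation of the groups was found in 19.9% of the 22155 possible pairs of tested targets.

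**Figure D3:**
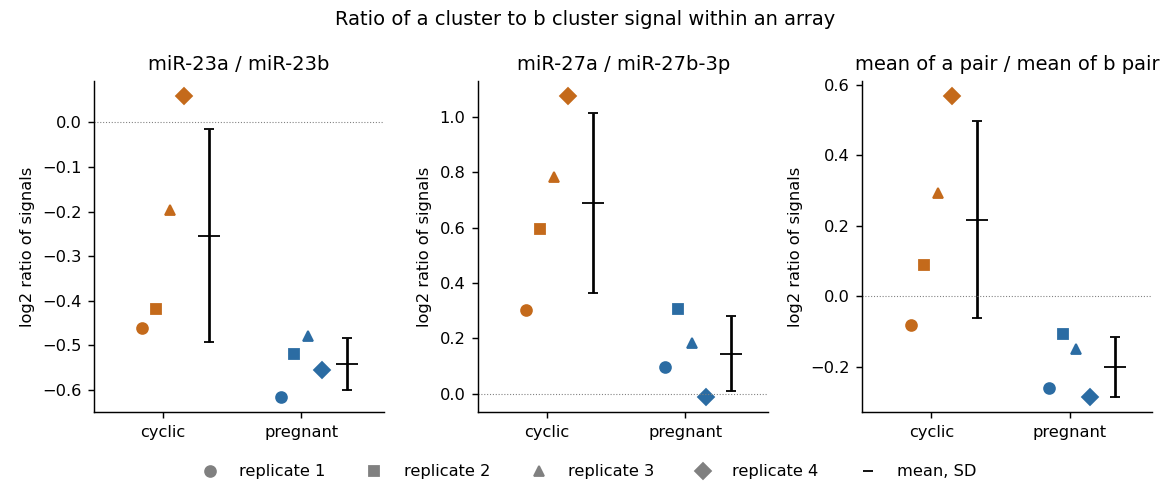
Log2 ratio of signals within an array (y axis) for miR-23a over miR-23b, miR-27a over miR-27b-3p, and the mean of the a pair over the mean of the b pair, in cyclic and pregnant glands, 4 arrays each; black marks give the mean and SD, and the dotted line marks 0. In the outer panels all pregnant arrays lie below all cyclic ones, while in the middle panel cyclic replicate 1 (0.30) falls just below pregnant replicate 2 (0.31).

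Single arrays moved these values. Without cyclic replicate 4, the array with the highest ratios, the change was −0.18 for miR-23. Leaving out any pregnant array ended the call for miR-23, with exact permutation p adjusted over the 3 ratios of 0.0857 to 0.114, although the values stayed between −0.31 and −0.26. The ratio of pair means, which passed the same test over all 8 arrays, did not pass without any 1 of the 4 pregnant arrays either. Without cyclic replicate 1 the miR-27 change was −0.67 and its adjusted exact permutation p was 0.0286. Within slide 3, where 2 arrays of each group lay side by side, the changes were −0.45 for miR-23 and −0.85 for miR-27, with an exact permutation p of 0.333, the smallest possible there. No such value exists for slides 1 and 2, since neither held both groups.

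The same comparison was made, after the values were seen, for every porcine miRNA number with a tested a form and a tested b form of the same arm or of an unstated one, which gave 15 pairs. The arrays of the groups did not overlap in 4 of them (26.7%). Besides miR-23 these were miR-99 (a change of −0.62), miR-199-3p (−0.19) and miR-181 (0.36). By size of the change, miR-27 ranked 2 and miR-23 ranked 6 among the 15.

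Within the a cluster, the log2 ratio of miR-27a to miR-23a was −0.26, 0.50, 0.44 and 0.39 on cyclic replicates 1 to 4 and −0.27, 0.09, −0.26 and −0.15 on pregnant replicates 1 to 4. Cyclic replicates 2 to 4 lay above all other arrays. In the b cluster, miR-27b-3p over miR-23b had a mean log2 ratio of −0.68 ± 0.24 on cyclic and −0.83 ± 0.14 on pregnant arrays (SD, n = 4), and the groups overlapped. miR-24-3p over the mean of miR-23a and miR-27a averaged −0.35 ± 0.22 and −0.04 ± 0.06, and miR-24-3p over the mean of miR-23b and miR-27b-3p averaged −0.13 ± 0.11 and −0.23 ± 0.09. These ratios were not tested.

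Markers of other cells were set beside the a to b ratio. Of the 10 leukocyte entries (miR-142, miR-146a, miR-150, miR-155 and miR-223), 6 were tested, with 0 higher in pregnancy and 1 lower, miR-155-5p (−0.96 ± 0.25, limma adjusted p = 0.0317), beside 6.16% called lower among all tested targets. The other tested entry of that miRNA, bta-miR-155, differed by −0.34 ± 0.20 and did not pass (limma adjusted p = 0.269). The largest difference on the list, that of hsa-miR-223-3p (−2.29 ± 0.76), did not pass (limma adjusted p = 0.0758), and miR-146a-5p (−0.01) and miR-150 (0.01) differed little. The summed scaled signal of the 6 was 0.749, 2.14, 1.88 and 4.84 on cyclic replicates 1 to 4 and 0.753 to 0.995 on the pregnant arrays. As with the a to b ratio, cyclic replicate 4 was highest and cyclic replicate 1 lowest among the cyclic arrays, while cyclic replicates 2 and 3 stood in the opposite order. The entries mmu-miR-223-5p, ssc-miR-142-3p, ssc-miR-146a-3p and ssc-miR-155-3p were detected on no array. The 3 tested of 4 fibroblast entries (miR-199a and miR-214) had 0 calls and summed to 2.69, 3.38, 6.38 and 4.60 on cyclic replicates 1 to 4 and 2.73 to 3.22 on the pregnant arrays, and hsa-miR-214-5p was not detected. This sum was highest on cyclic replicate 3, not on cyclic replicate 4. Within the list, miR-199a-3p (−0.53) and miR-199a-5p (−0.51) had negative differences and miR-214 (0.11) a positive one. The part of either cell type in the ratios was not tested.

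**Figure D4:**
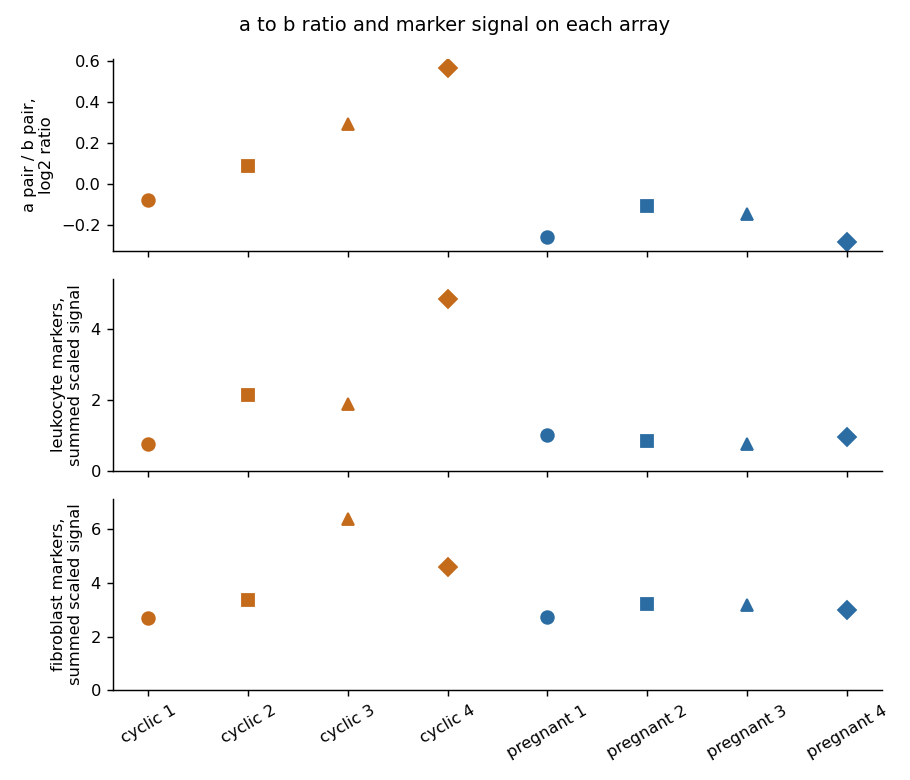
For each array (x axis), the log2 ratio of the a pair to the b pair (top), the summed scaled signal of 6 leukocyte markers (middle) and of 3 fibroblast markers (bottom); orange marks cyclic and blue pregnant arrays. Cyclic replicate 1 lies near the pregnant arrays in all 3 panels, and cyclic replicates 2 to 4 lie above them, replicate 2 only narrowly in the bottom panel. Sums are of unlogged signals, so the brightest entries weigh most.

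The endothelial list, the cell type for which both clusters are known, did not separate the groups. Of its 7 entries 5 were tested, with 0 higher and 0 lower and a median difference of 0.16. The vessel miRNA miR-126-3p differed by 0.16 ± 0.12 (limma adjusted p = 0.363), miR-126-5p by −0.08, miR-130a by 0.21, miR-221-3p by 0.07 and miR-222 by 0.16. Summed scaled signal was 7.43 to 8.57 on the cyclic arrays and 8.28 to 10.2 on the pregnant ones, with mmu-miR-130a-5p and ssc-miR-221-5p detected on no array. For the other lists the summed signals also overlapped. Of the 4 erythroid entries 1, miR-451, was tested, and both miR-486 entries were detected on no array. The scaled signal of miR-451 was 7.17, 4.77, 1.32 and 1.27 on cyclic replicates 1 to 4 and 1.25 to 6.16 on the pregnant arrays. Among the cyclic arrays this was the reverse of the order of the a to b ratio. For the 4 smooth muscle and pericyte entries the sums were 1.25 to 1.87 on cyclic and 1.28 to 1.70 on pregnant arrays. For the 2 entries of miR-202 they were 0.210 to 0.540 and 0.343 to 0.626. There were 0 calls in these lists.

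How far the members varied together from gland to gland was examined in all 10 pairs over the 8 arrays. The highest correlations were those of miR-24-3p. With miR-27b-3p it gave r = 0.82 (exact permutation p = 0.0128) and rho = 0.74 (exact permutation p = 0.0458), but r fell to 0.50 without pregnant replicates 3 and 4, on which that relation therefore rests in part. With miR-23a it gave r = 0.78 (exact permutation p = 0.0231) and rho = 0.83 (exact permutation p = 0.0154), and r was 0.86 without cyclic replicate 4 and pregnant replicate 3. After adjustment over the 10 pairs 0 passed, the lowest adjusted exact permutation p being 0.116 for r and 0.154 for rho.

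The other pairs had lower values. miR-23a and miR-27a had r = 0.66 and rho = 0.67 (adjusted exact permutation p = 0.209 and 0.277), and r = 0.25 without cyclic replicate 4 and pregnant replicate 3. miR-23b and miR-27b-3p had r = 0.59 and rho = 0.55 (adjusted exact permutation p = 0.251 and 0.309), and r = −0.36 without pregnant replicates 2 and 4. The paralogs miR-23a and miR-23b had r = 0.28 and rho = 0.17 (adjusted exact permutation p = 0.503 and 0.703), and miR-27a and miR-27b-3p r = 0.50 and rho = 0.50 (0.277 and 0.309). The remaining pairs ran from r = −0.29 for miR-27a and miR-23b to r = 0.65 for miR-24-3p and miR-23b. After taking out the group means, all 10 correlations were positive, from 0.10 to 0.82. After taking out the slide means instead, 9 were positive, from 0.40 to 0.87, and that of miR-27a with miR-23b was −0.23. All members share the scaling factor of an array, and the share of positive correlations over all pairs of tested targets was not computed. With at most 4 arrays on a slide, no correlation was computed inside a single slide. The a and b forms are near-identical in sequence, and binding of one form to the probe of the other was not tested.

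Profiles across the glands were then set against all other tested targets, by the SD of the log2 difference within an array (a small SD means a parallel course). The targets most like the mean of miR-23a and miR-27a were ssc-miR-17-3p (SD 0.14), mmu-miR-342-3p (0.15) and ssc-miR-193a-3p (0.16), beside a median of 0.36 over 209 targets. miR-24-3p (0.22) ranked 19 there, miR-27b-3p (0.25) ranked 32 and miR-23b (0.36) ranked 104. Those most like the mean of miR-23b and miR-27b-3p were ssc-miR-339 (0.08), ssc-miR-22-3p (0.09) and ssc-miR-339-5p (0.10), beside a median of 0.32. The entries ssc-miR-339 and ssc-miR-339-5p carry the same miRNA number. Here miR-24-3p (0.11) ranked 4, miR-23a (0.19) ranked 25 and miR-27a (0.44) ranked 161. Across the 8 glands miR-24-3p thus ran closer to the mean of the b pair than to that of the a pair on this measure. The measure also grows with the spread of either profile, and the a pair holds miR-27a, whose own SD was 0.43. Against single members the SD of the difference from miR-24-3p was lowest with miR-23a of the a cluster (0.12), then miR-27b-3p (0.14), miR-23b (0.15) and miR-27a (0.38). These differences were not tested.

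**Figure D5:**
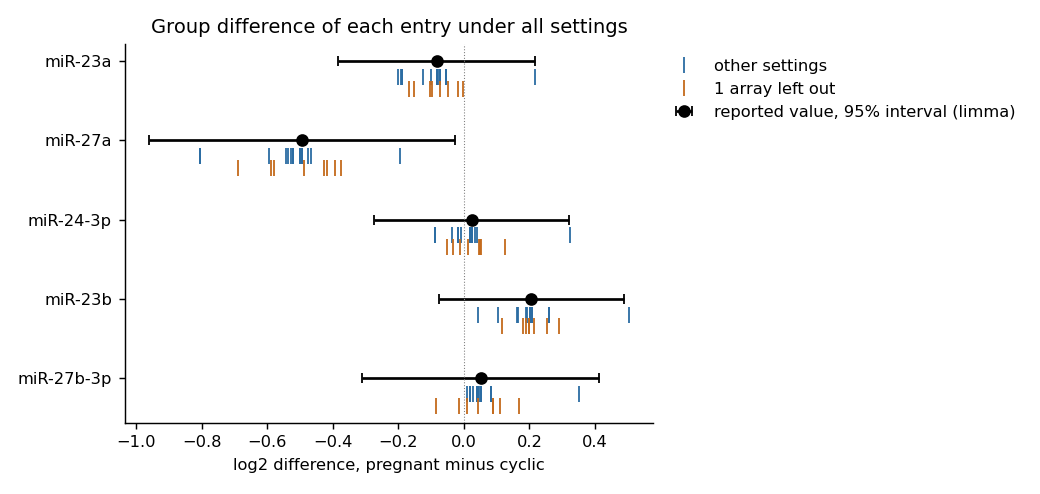
Log2 difference, pregnant minus cyclic (x axis), of the 5 detected members. Black points are the reported values with their 95% limma intervals, blue ticks are other settings and orange ticks are fits without 1 array each. All values of miR-27a lie below 0 (−0.80 to −0.20) and all those of miR-23b above 0 (0.04 to 0.51).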

How the data were processed

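Luteal total RNA of 8 gilts was measured on 1-colour Agilent arrays. Each deposited scanner file gives the intensity of every spot after background subtraction by Agilent Feature Extraction (version 10.7.3.1 per the file headers; the submitters' processing notes give 10.7). A second table deposited by the authors holds log2 values centred over the arrays at each spot, as found by setting it against the scanner intensities of 2224 bright spots (same direction, r 0.877 to 0.973). Which scaling between arrays preceded it is unknown. In that deposited table the columns of cyclic replicates 2 and 4 are entered as a score because of 3 cells above 100, which were treated as missing. The medians of its columns for the cyclic arrays, by replicate number, were 0.0108, −0.000283, 0.000689 and −0.000205. Those for the pregnant arrays were −0.000302, 9.45e-05, −9.45e-05 and 0.0318.

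Control spots (715) and outlier spots (384 to 453 per array) were left out. Spots were averaged per probe and scaled to the 75th percentile of each array among the 166 targets detected on all arrays, floored at log2 −4.85 (the 1st percentile of detected probes), and log2 was taken. The brightest probe stood for its target. Detection of a probe required at least 0.5 of its spots well above background, and the 211 targets detected on at least 4 arrays were tested with limma 3.58.1 (eBayes with trend, 2-sided, R 4.3.3), with Benjamini-Hochberg adjustment over all of them at 0.05. Ratios and correlations were tested by exact permutation (Python 3.11.15, scipy 1.17.1). Figures were drawn with matplotlib 3.10.9.

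On 2000 simulated targets for this comparison, 91% of those changed by 1 on the log2 scale were called. Changes below 1, such as those of the detected members, and effects of the slide were not simulated. Same-numbered arrays of the groups had correlations of their deviations from −0.18 to 0.16, so the numbers were not taken to pair them. The number of arrays limits the precision. Members and marker lists were chosen with earlier results of these data known. Named targets were every entry of the 3 miRNA numbers, the tested markers of the endothelial list, and for each cluster the 3 other targets with the most similar profile. Targets of the other marker lists and of the other a and b pairs were named after their values were seen. Alternatives were background correction, normalization, probe summary, detection filter, variance model, slide, replicate number and each array left out. Scan day and the second probe of a target were added after seeing the data. Of the gene names in the RefSeq table for Sscrofa11.1, 6 of the 6 hairpins of both clusters were found.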

Additional observations from a re-analysis of the deposited data

How the results depend on the processing

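Slide and group could be separated on slide 3 alone, with 2 arrays of each group, and for the 6 opposite-strand entries the signal over background was too low for any comparison. The miR-27a difference was negative and the miR-23b difference positive in all 19 other settings and all 8 fits without 1 array. Not all 19 are separate checks of sign. The replicate block, the detection filters and the variance models leave a difference unchanged by construction. Slide as a block repeats the value within slide 3, and scan day as a block that of the single day with both groups. Scaling over all probes, which raised the median of all tested targets to 0.31, gave 0.22 for miR-23a and 0.51 for miR-23b, the 1 setting of 19 in which miR-23b passed. The miR-24-3p difference became −0.0188 without scaling, −0.0191 with scan day as a block or restriction, −0.0375 with the authors' deposited table, −0.0104 with the total gene signal, and −0.0887 with slide as a block or within slide 3. Without 1 array it ran from −0.0516 to 0.13, that of miR-27b-3p from −0.0852 to 0.17, that of miR-23a from −0.17 to −0.0042, that of miR-23b from 0.12 to 0.29 and that of miR-27a from −0.69 to −0.38. The change of the a to b ratio was negative in all settings tried. Of these, the replicate block keeps the change by construction and slide as a block repeats slide 3. The mean of all detected probes and the total gene signal gave the same changes (−0.27 for miR-23, −0.55 for miR-27, −0.41 for the pair means). These 2 settings are therefore not separate checks of the ratios. Without 1 array it was −0.36 to −0.18 for miR-23, −0.67 to −0.42 for miR-27 and −0.52 to −0.30 for the pair means. miR-23 and the pair means no longer passed with quantile normalization (−0.30 and −0.43), within slide 3 or with slide as a block (−0.45 and −0.65), on the only scan day with arrays of both groups (−0.26 and −0.43), or with the replicate block (−0.29 and −0.42). In the last 3 settings the number of splits allows no p under 0.05. miR-23 did not pass with the authors' deposited table (−0.24), whereas miR-27 did (−0.62), as it did with the mean of all detected probes and the total gene signal (both −0.55). The replicate block left the 5 member differences as they were, with miR-27a at −0.49 and an adjusted p of 0.0710, and gave 27 called targets. The count of called targets, 24, was 62 with scaling over all probes, 11 with normexp, 9 without scaling, 10 with the total gene signal, 11 with targets detected on at least 1 array, 1 with no filter, 2 with scan day, 81 without cyclic replicate 1 and 7 to 12 without any other array. Among the correlations, scaling over all probes raised those of miR-24-3p with miR-23a (0.86), miR-23b (0.91) and miR-27b-3p (0.89) and that of miR-23b with miR-27b-3p (0.80) past the threshold, as no scaling did for miR-24-3p with miR-23a (0.91). That of miR-23a with miR-23b became −0.0600 under quantile normalization, and that of miR-27a with miR-23b 0.14 without scaling. The causes were not tested.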
